A study of Mus musculus with 4 samples.

Results

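The transcripts described here are those of 5 genes of GABA synthesis, vesicle loading and GABA-A receptors in the dentate gyrus: Gad1, Gad2, Slc32a1, Gabrb1 and Gabrd. Members were taken by name, as the probe sets for which the array annotation gives exactly 1 gene symbol, that symbol being 1 of the 5. Each gene had 1 such probe set, so the members are 5 of the 12422 probe sets that are not controls. Gene expression was measured with single-channel oligonucleotide arrays in total RNA from the dentate gyrus of young male C57BL/6J mice. The 4 samples were controls that an experimenter handled and that had no other treatment. They differ in the hour of RNA extraction, 1, 2, 4 or 6 h after the last shock given to other mice of the study, whose arrays were not used here. With 1 array per hour, single hours carry no replicate error, and a mean ± SD over all 4 control arrays is given instead. The labels do not say whether RNA of several mice was pooled, so p-values measure only the spread between these samples, which may be technical.

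GABA is the main inhibitory transmitter of the adult hippocampus. Interneurons make it from glutamate with the glutamate decarboxylases GAD67 (Gad1) and GAD65 (Gad2), and the vesicular transporter VGAT (Slc32a1) loads it into synaptic vesicles. On the receiving cell, GABA opens GABA-A receptors, chloride channels of several subunits. Gabrb1 encodes the beta-1 subunit. Gabrd encodes the delta subunit, which sits in receptors outside the synapse that give granule cells of the dentate gyrus a tonic inhibition. In bulk tissue, fewer cells of a type and less RNA per cell cannot be told apart.

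The promoters of the 2 decarboxylase genes are shown because their enzymes carry out the same reaction, while only the Gad1 probe set was bright enough to be tested. The sequences are RefSeq's (GRCm38.p6), the 250 bases before the annotated start on the plus strand, with motif matches in capitals. The Gad1 window is chr2:70561879-70562128 and the Gad2 window chr2:22622077-22622326.
Gad1: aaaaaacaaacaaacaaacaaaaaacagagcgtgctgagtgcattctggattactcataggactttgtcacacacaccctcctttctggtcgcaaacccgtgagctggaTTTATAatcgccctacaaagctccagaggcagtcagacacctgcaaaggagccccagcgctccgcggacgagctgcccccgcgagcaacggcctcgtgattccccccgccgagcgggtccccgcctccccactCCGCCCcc
Gad2: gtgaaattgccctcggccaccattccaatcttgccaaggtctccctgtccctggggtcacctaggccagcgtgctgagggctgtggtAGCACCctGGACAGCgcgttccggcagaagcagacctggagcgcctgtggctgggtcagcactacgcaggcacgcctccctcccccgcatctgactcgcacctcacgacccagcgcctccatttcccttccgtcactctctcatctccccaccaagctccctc
Both strands were searched for 5 motifs, and the matches do not overlap. In Gad1 the capitals mark a match to TATAAA on the minus strand, which starts 141 bases before the gene, and to GGGCGG on the minus strand, 8 bases before it. Of 32851 promoter windows of this length, 12.4% held the first and 32.7% the second. In Gad2 the capitals mark a match, 163 bases before the start, to AGCACC followed after 2 bases by GGACAGC, the parts of the element bound by REST, a repressor of neuronal genes. Only 9 of the 32851 windows (0.0274%) held it, and this motif was chosen after the sequence had been read. Neither window held CACGTG (6.02% of windows) or TGACGTCA (1.55%). The windows are 58.0% and 64.0% G or C, against a median of 52.4% over all windows. The arrays measured transcripts, not promoter activity, and a match is a description only.

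Gad1, the synthesis gene, was nearly level over the control arrays. Its intensity, the deposited brightness of a probe set on a linear scale, was 4067, 4128, 4181 and 4310 on the arrays of 1, 2, 4 and 6 h. The values stood in the order of the hours, but the highest was only 1.06 times the lowest. The mean was 4171 ± 104 (SD, n = 4), a coefficient of variation of 2.48%. On the log2 scale the SD was 0.04, and of the 7453 probe sets bright enough to be tested, only 49 had a smaller one. The median SD was 0.243 over all tested probe sets and 0.16 over the 1863 brightest of them, to which Gad1 belongs.

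Gad2, the other decarboxylase gene, gave a dim signal on these arrays. It read 116, 122, 86.5 and 72.4 in the same order of hours, with a mean of 99.3 ± 23.7 (SD, n = 4). The 4 h and 6 h arrays lay below the 1 h and 2 h arrays. Its mean log2 value of 6.60 fell just under the filter of 6.66, so it was not tested among the 7453 probe sets. Its slope was -0.15 log2 units per hour, and in a fit of all 12422 probe sets without the filter its adjusted p in limma was 0.812. Brightness depends on the probe as well as on the transcript, so the lower intensity of Gad2 does not show that its transcript was scarcer than that of Gad1.

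Slc32a1, the vesicular GABA transporter gene, varied a little more than Gad1. It measured 2096, 1777, 1927 and 2141, with a mean of 1985 ± 167 (SD, n = 4). The 2 h array was the lowest and the 1 h and 6 h arrays were the highest, with no order by hour. The highest value was 1.20 times the lowest. Its log2 SD of 0.12 was larger than that of 597 of the 1863 brightest probe sets.

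Gabrb1, a receptor subunit gene, was also steady. Its values were 5504, 5484, 5762 and 5996, with a mean of 5686 ± 242 (SD, n = 4). The 1 h and 2 h arrays differed by little and lay below the 4 h and 6 h arrays. The highest value was 1.09 times the lowest, and the log2 SD was 0.06, a value that 131 of the 1863 brightest probe sets fell below.

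Gabrd, the delta subunit gene, stood apart at 1 h. It read 20.8 on that array and 190, 217 and 194 on the 2, 4 and 6 h arrays. The 1 h value lay close to the floor of 16.4, the 10th percentile of all non-control values, to which lower values were set. The 3 later arrays lay within a narrow range, 201 ± 14.6 (SD, n = 3). Relative to 1 h these values were higher by factors of 9.15, 10.4 and 9.32. These folds rest on 1 dim value: with a pseudocount of 16 in place of the floor, the log2 differences went from 3.19, 3.38 and 3.22 to 2.49, 2.66 and 2.51. Of the 7453 tested probe sets, 11, Gabrd included, were at least as far below their later arrays at 1 h. Over the 4 arrays its log2 SD was 1.64, larger than that of 7438 tested probe sets. Of the 1864 dimmest tested probe sets, to which Gabrd belongs, 1852 had a smaller SD, and their median was 0.417. Without the 1 h array the log2 SD of Gabrd was 0.10, below the median of 0.182 over all tested probe sets. Gabrd passed the filter only through its 3 later arrays.

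**Figure D1:**
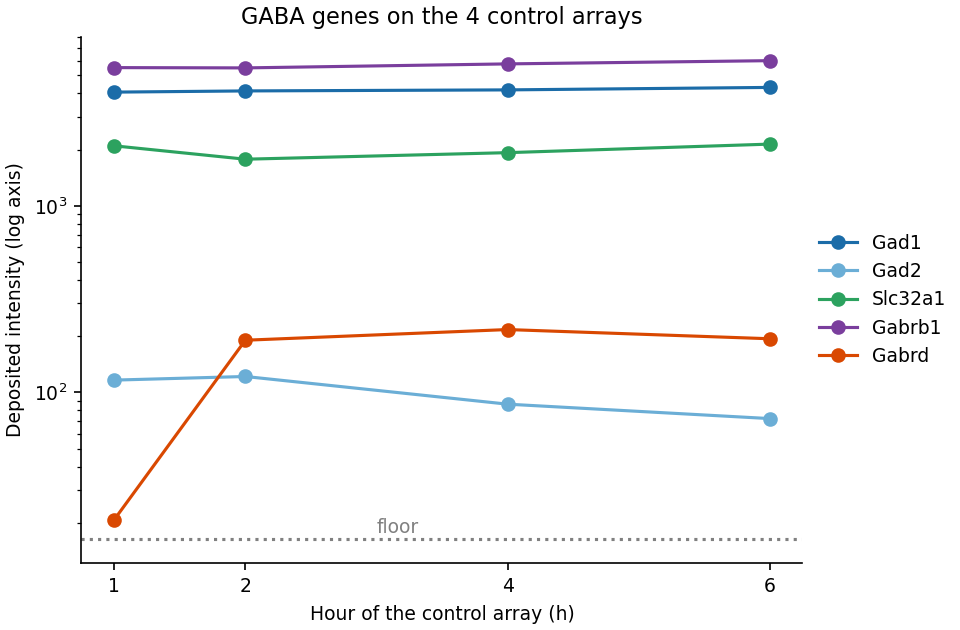
Deposited intensity (log axis) of the 5 members against the hour of the control array, 1 point per array. Gad1, Slc32a1 and Gabrb1 run nearly level, Gad2 goes from 116 to 72.4, and Gabrd goes from 20.8 at 1 h, just above the floor of 16.4 (dotted line), to between 190 and 217 later.

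**Figure D2:**
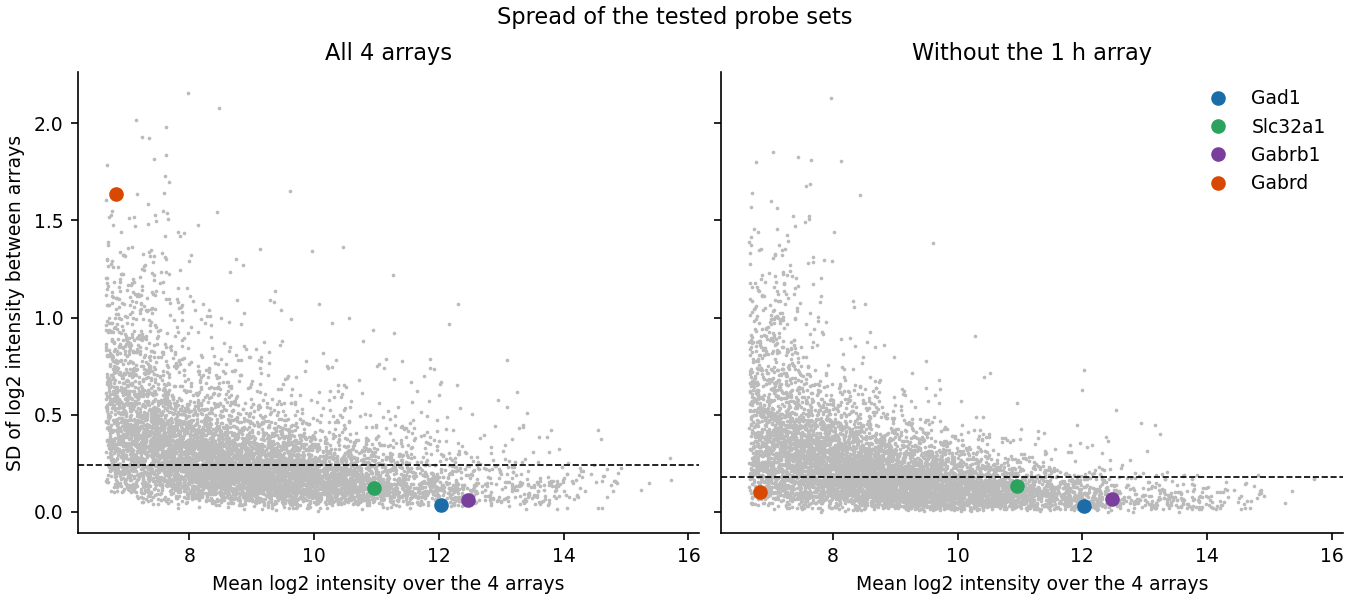
SD of log2 intensity between arrays against mean log2 intensity for the 7453 tested probe sets (grey points), over all 4 arrays (left) and without the 1 h array (right), with the 4 tested members coloured and the median as a dashed line at 0.243 and 0.182. Gabrd lies at 1.64 on the left and at 0.10 on the right, while the other 3 members lie below the median in both panels.

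The 1 h array differed from the others in measures of RNA quality as well. The 3' to 5' intensity ratio of the control transcript Gapdh was 4.88 at 1 h and 1.13, 1.33 and 1.24 at 2, 4 and 6 h, and that of beta-actin was 2.51 at 1 h and 1.83 to 2.20 later. Of the 7453 tested probe sets, 394 (5.29%) stood 2-fold or more under the mean of their later arrays at 1 h, and 134 (1.8%) as far over it. Of the 4 tested members, 1, Gabrd, lay that far below and 0 that far above. The part of RNA quality in the Gabrd value was not tested. The summed intensities of marker lists follow, as values with no test of the sums. In the granule cell list, 9 of 13 probe sets were bright enough to be tested, and their summed intensity was 7437 to 8432 with the lowest sum at 1 h. The interneuron list (13 of 21 tested) summed to between 23358 and 26070. Cck, which pyramidal cells also express, made up 11068 to 14058 of that sum. The astrocyte list (15 of 17) summed to between 87563 and 96745 and the microglia list (10 of 13) to between 9275 and 10117. The choroid plexus list (5 of 8) went from 992 at 1 h to 4455 at 6 h, and from 767 to 1446 without Ttr, whose slope was the only one called in these lists. The oligodendrocyte list (12 of 16) was highest at 2 h at 22675, and the endothelial list (8 of 11) went from 2084 to 1491. The striatal and thalamic list (7 of 11) went from 4716 to 5619. In these 8 lists 0 probe sets were listed at 0 in every array, and the part of other cells in the GABA genes' values was not tested. Calb1, the brightest granule cell marker, read 2033, 2052, 2323 and 2375, and Prox1, a granule cell transcription factor, 71.6, 278, 155 and 232 with the 1 h array the lowest. Of the 9 tested granule cell probe sets, 1, that of Prox1, lay 2-fold or more below its later arrays at 1 h, and 0 as far above. The others stood above their later arrays in some cases and below them in others, and the median log2 difference of the 9 was -0.129. Low values at 1 h were not limited to granule cell markers. By 2-fold or more, 3 of 5 choroid plexus, 3 of 12 oligodendrocyte and 1 of 15 astrocyte probe sets lay below, and 0 in the remaining lists.

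A slope over the hour asks whether control levels drift in the course of the experiment. It was fitted with limma on log2 intensity over all 7453 tested probe sets, with 2 residual degrees of freedom for each. To a probe set's own spread limma adds that of other probe sets of like intensity. The SEs, intervals and p-values thus do not rest on a gene's own 4 values alone. At an adjusted p under 0.05, 1 probe set passed, that of Ttr (0.0134% of those tested), and 0 of the 4 tested members did. Before adjustment, 328 probe sets (4.4%) and again 0 members had a p under 0.05. The slope of Gad1 was 0.02 ± 0.03 log2 units per hour (SE), with a 95% confidence interval from -0.07 to 0.10 and an adjusted p in limma of 0.952. Expressed as a change per hour, the interval runs from -4.53% to 7.07%. Slc32a1 had a slope of 0.02 ± 0.04 (interval -0.08 to 0.12, limma adjusted p = 0.951), and Gabrb1 one of 0.03 ± 0.03 (interval -0.05 to 0.11, limma adjusted p = 0.926). With that shared variance, these intervals bound the drift per hour to at most 0.12 log2 units upward and 0.08 downward for those 3 genes. Gabrd had the largest slope of the 4, 0.50 ± 0.24, with an interval from -0.08 to 1.08 and an adjusted p in limma of 0.874. Without the 1 h array its slope was 0.01 (limma adjusted p = 0.999). The slope of Slc32a1 was 0.07 without the 1 h array and -0.03 without the 6 h array, so its sign rests on which array is used.

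**Figure D3:**
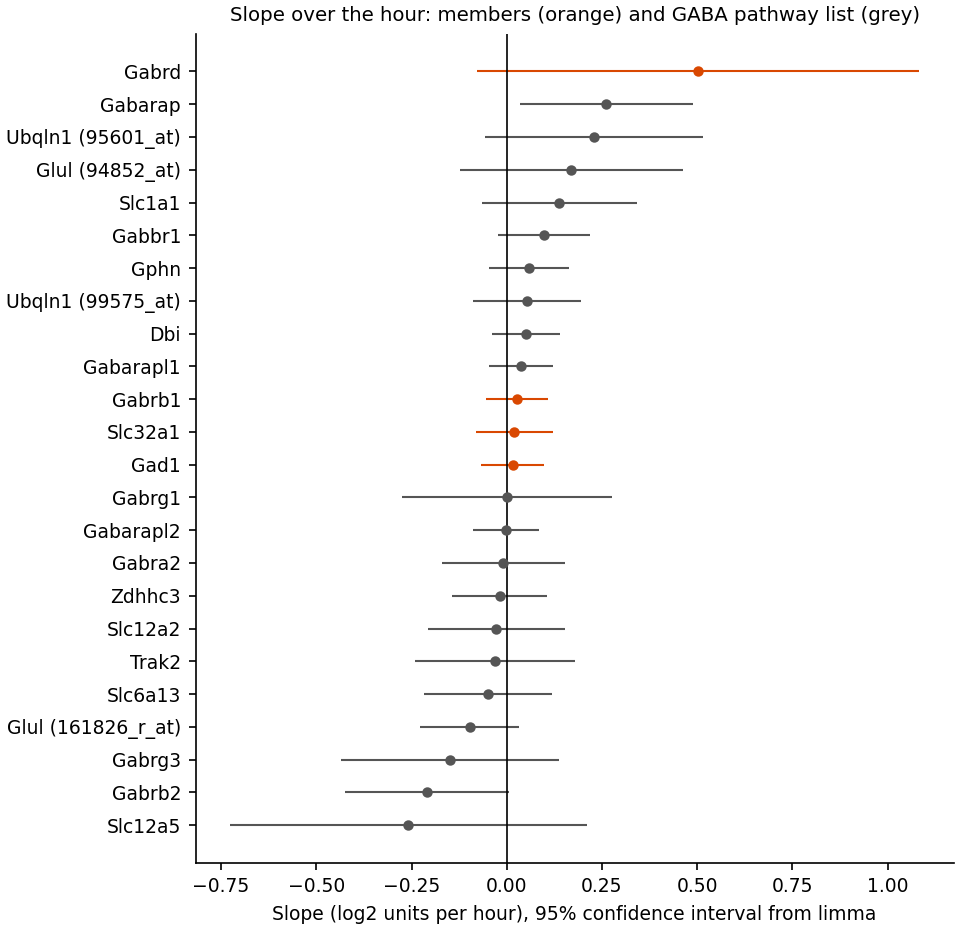
Slope of log2 intensity over the hour with its 95% confidence interval from limma, for the 4 tested members (orange) and the 20 tested probe sets of the wider GABA pathway list (grey). Gad1, Slc32a1 and Gabrb1 have narrow intervals around 0, Gabrd has the widest interval, -0.08 to 1.08, and the interval of Gabarap, 0.03 to 0.49, is the only one that leaves out 0 before adjustment.

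Differences of 2-fold or more from the 1 h array were found in 9.79%, 8.41% and 9.34% of tested probe sets on the 2, 4 and 6 h arrays. Of the 4 tested members, 1, Gabrd, did so at each hour, and it was higher. Over all tested probe sets, 272 (3.65%) were at least 2-fold higher than at 1 h on all 3 later arrays. The log2 differences from 1 h at 6 h were 0.08 for Gad1, 0.12 for Gabrb1 and 0.03 for Slc32a1. Set against the mean of the other 2 later arrays, the log2 differences of Gabrd were -0.11, 0.18 and -0.07, so the later arrays differed little among themselves. These differences compare single arrays and have no test.

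The wider GABA pathway was described with a list of 46 further genes. Probe sets of 23 of them were on the array, 27 in all, and 20 were bright enough to be tested. In limma, 0 of the 20 passed at an adjusted p under 0.05, and 1 had an unadjusted p under 0.05. Over all tested probe sets these shares were 0.0134% and 4.4%. Slopes were positive in 10 and negative in 10, where 46.5% of all tested probe sets had a positive slope. The median slope was -0.001 log2 units per hour in the list and -0.006 over all tested probe sets. Scaling the arrays to a common median made 13 of the 20 slopes positive (65%), and without the 1 h array 6 were, where 47.7% of all tested probe sets were. On the 1 h array, 14 of the 20 stood under the mean of their later arrays, where 45.4% of all tested probe sets did. By 2-fold or more, 3 stood under it and 0 over it, beside 5.29% and 1.8% of all tested probe sets.

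Among the other GABA-A receptor subunit genes, Gabra2, an alpha subunit, was the brightest. It measured 1160, 716, 859 and 977, so that the 1 h array was the highest. Gabrb2, a beta subunit like Gabrb1, read 245, 179, 167 and 108. Its values ran downward in the order of the hours, with a slope of -0.21 ± 0.09 (SE) and a limma adjusted p of 0.874, so that no trend was called. The direction at 1 h differed between the subunit genes: Gabrd was low there, Gabra2 and Gabrb2 were high, and Gabrb1 was near its later values.

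The gamma subunit genes were dimmer. Gabrg1 read 105, 152, 116 and 122, and Gabrg3 read 126, 183, 132 and 84.4. For each the 2 h array was the highest. The alpha-3, alpha-6 and rho subunit genes did not pass the filter. Gabra3 lay under the floor on all 4 arrays, at 9.4 to 12.2. Gabra6 ranged from 8.9 to 48.1 in its first probe set and from 22.7 to 133 in its second, which may share sequence with related genes. Gabrr1 read 10.8 to 45.4, and Gabrr2 read 96.2, 108, 21.4 and 15.3.

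Gabbr1, a subunit of the metabotropic GABA-B receptor, was lower at 1 h than later. It read 3093, 4577, 4671 and 4743. The 3 later arrays lay close together and the 1 h array stood below them, with 6 h 1.53 times as high as 1 h. Its slope of 0.10 ± 0.05 (SE) had a limma adjusted p of 0.874. As for Gabrd, the value that differed was that of the 1 h array. The part of RNA quality in the Gabbr1 value was not tested.

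In the list, 3 of the 20 tested probe sets, each of a different gene, were at least 2-fold higher than at 1 h on each later array. Over all tested probe sets, 3.65% were. Gabarap, which binds GABA-A receptors and takes part in their trafficking, read 958, 2505, 2724 and 2947. It was 2.62 to 3.08 times its 1 h value, with a slope of 0.26 ± 0.09 (SE), an unadjusted p of 0.0301 and an adjusted p of 0.874 in limma. Its relatives had a narrower range: Gabarapl1 read 6668, 7485, 7313 and 7889, and Gabarapl2 3526, 3668, 3765 and 3492. Ubqln1, a ubiquilin that binds receptor subunits, read 257, 835, 586 and 820 in its dimmer probe set. Its brighter probe set gave 1502, 2390, 1904 and 2122. Glul, the glutamine synthetase of astrocytes, read 200, 595, 551 and 469 on 1 probe set. A second Glul probe set, with an identifier ending in _r_at that marks relaxed rules of probe choice, read 866, 657, 755 and 552, the opposite direction. Probe sets of 1 gene thus differed in direction for Glul and in size for Ubqln1.

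Of the transporters, Slc6a13 (GAT2), a GABA uptake carrier, read 635, 450, 660 and 447 with no order by hour. Slc12a5, the chloride exporter KCC2 that sets how strongly GABA inhibits a mature neuron, read 240, 265, 49.0 and 148. Its 4 h array was the lowest, and its slope of -0.26 ± 0.19 (SE) had a limma adjusted p of 0.876. Slc12a2, the chloride importer NKCC1, read 740, 995, 561 and 824, also lowest at 4 h. Gphn, the gephyrin scaffold of inhibitory synapses, read 727, 804, 824 and 915, and Dbi, a peptide that binds GABA-A receptors, 4917, 4488, 5448 and 5546.

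**Figure D4:**
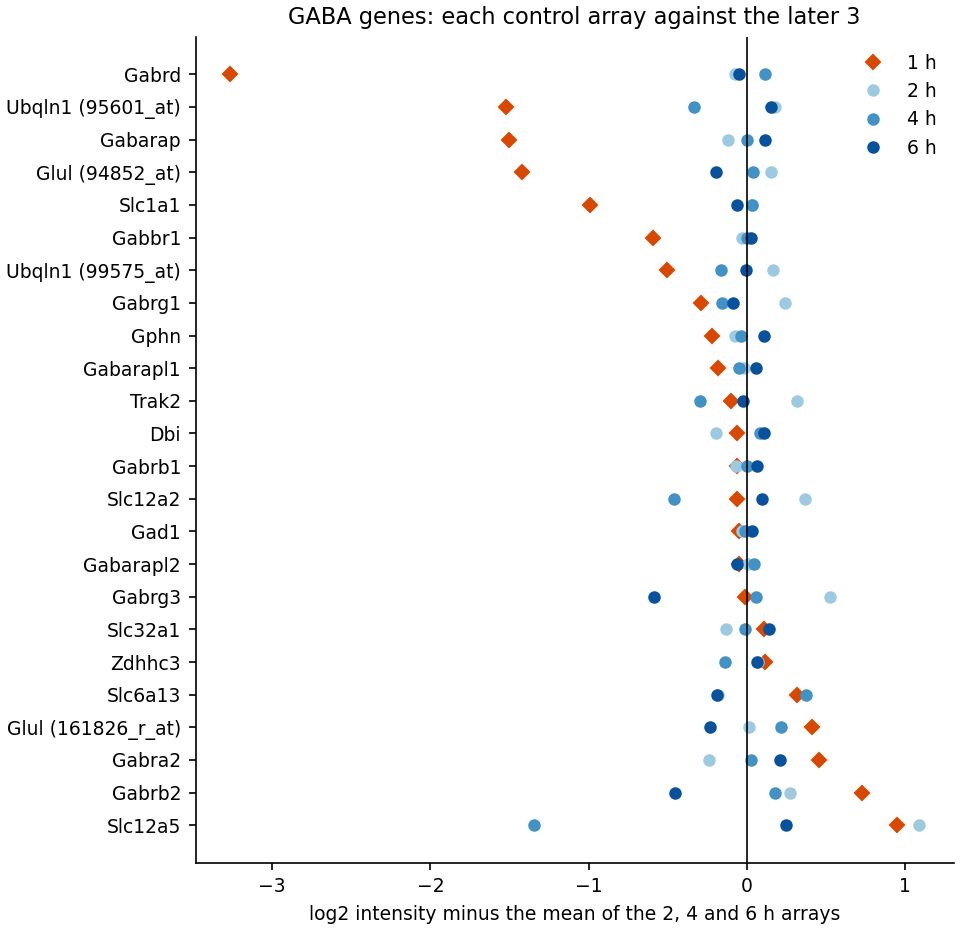
log2 intensity on each control array minus the mean of the 2, 4 and 6 h arrays, for the 4 tested members and the 20 tested probe sets of the GABA pathway list, ordered by the 1 h value (diamonds). Gabrd is the farthest below 0 at 1 h, Gabarap and 1 probe set each of Ubqln1 and Glul follow, and Gad1, Gabrb1 and Slc32a1 lie near 0 on every array.

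The profiles most like those of the members were found among 6733 other tested probe sets of 1 gene, as the smallest root-mean-square difference in log2 intensity after each was centred on its mean over the 4 arrays. With 4 arrays, many profiles lie close to a level one. Nearest to Gabrd was Wdr74, at a difference of 0.05, which read 35.0, 334, 347 and 337. Tgoln1 (0.11) and St6galnac6 (0.24) followed, reading 31.1, 296, 284 and 256, and 32.8, 398, 300 and 374. All 3 were low at 1 h, as the measure requires. Nearest to Gad1 were Tab2, Banf1 and Atp6v1e1, at differences of 0.0081 to 0.0131. Nearest to Gabrb1 were Tmem223, Api5 and Plppr2, at 0.009 to 0.0121, and nearest to Slc32a1 were Lmo7, Pgm1 and Psma2, at 0.0019 to 0.0191.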

How the data were processed

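Single-channel arrays measured total RNA of 4 handled control samples, 1 per hour. The authors deposited intensity values on a linear scale, and how they were made is not stated in the labels. The 2%-trimmed mean over all 12488 rows was 500.3 on each array, so a difference in total RNA does not show. The 66 control probe sets were left out. Gene symbols were those of the platform annotation, which gives exactly 1 for 10833 probe sets.

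Values were floored at 16.4 (the 10th percentile) and converted to log2. Probe sets with a mean log2 of at least 6.66 (the 40th percentile) were kept, 7453 in all. Slopes over the hour were fitted with limma 3.58.1 in R 4.3.3 (lmFit, eBayes with a trend on intensity), two-sided, with Benjamini-Hochberg adjustment over all kept probe sets. The script was tested on simulated data. Precision is limited by having 4 arrays.

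Members and lists were chosen with earlier results of these data known. Named were all probe sets of the members and of GABA receptor subunits, list genes at least 2-fold from 1 h on every later array, the 5 largest slopes of the list, the brightest granule cell and interneuron markers, and the 3 nearest profiles of each member. Chosen after their values were seen were Slc6a13, Slc12a2, Gphn, Dbi, Gabarapl1, Gabarapl2, Ttr and Prox1 in the results, and Sst, Npy, Pvalb, Calb2, Lhx6 and Nos1 in the closing section. Alternatives were other scalings, floors, filters, time scales and variance priors, and leaving out each array.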

Additional observations from a re-analysis of the deposited data

Results flagged for a closer look

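Among 50 probe sets examined (those named here and other probe sets of some of their genes), 5 had a highest or lowest array whose gap to the nearest other, divided by the range of the 4 arrays, exceeded Dixon's 95% critical value. Chance flags about 1 in 20 such groups, a rate that does not carry over here, since several of these probe sets were chosen on their values, Sst among them. For Gabrd the gap was 0.864 of the range, with 1 h the lowest. For Gabbr1 it was 0.9, again with 1 h the lowest. Wdr74 (0.959) and Tgoln1 (0.85) were named for profiles like that of Gabrd, so their low 1 h value follows from that choice. For Sst it was 0.833, with 6 h the highest, in a range of only 4013 to 4073.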

How the results depend on the processing

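In 65 refits of the members' slopes (5 genes, 13 alternatives), 64 kept the sign. Of these refits, 52 gave an adjusted p, and 0 of the 52 passed the threshold in limma. Gad2 was tested only with no filter (adjusted p = 0.812), and Gabrd not with the stricter filter. The exception was Slc32a1, whose slope ranged from -0.026 (6 h array left out) to 0.067 (1 h left out). The limma adjusted p ranged over the alternatives from 0.86 to 1 for Gad1, 0.922 to 1 for Slc32a1, 0.754 to 1 for Gabrb1 and 0.261 to 1 for Gabrd. The count of probe sets with a called slope was 1. It was 0 in 3 settings: no filter, late hours against early ones, and no trend in the variance prior (694, 250 and 360 at an unadjusted p under 0.05), and 0 to 1 when single arrays were left out. Probe sets at least 2-fold from 1 h at 2, 4 and 6 h numbered 730, 627 and 696. They numbered 2499, 2420 and 2462 with no filter, 249, 204 and 231 with only the brightest 40% kept, and 235, 235 and 203 against the mean of the other 2 later arrays, which also turned the sign for Gabrd to -0.108 at 2 h and -0.069 at 6 h. Of those at 6 h, 60.9% were higher as deposited, 71.4% with arrays scaled to the same median, 42.6% with no filter and 77.9% with the stricter filter. At 2 and 4 h the last 2 settings gave 49.2% and 79.5%, and 51.1% and 81.9%, against 64.8% and 67.5%. Of the 5 members, 2 (Gad2 and Gabrd) had a log2 SD over the median of tested probe sets, and 1 to 2 did when single arrays were left out. Both are dim, and the median SD of the 1864 dimmest tested probe sets was 0.417. The SD of Gad2, 0.36, lay under that value, and the SD of Gabrd, 1.64, lay over it. No paired analysis was possible because each hour has 1 array, and the ordinal that all 4 titles share, whose meaning the labels do not state, tells no arrays apart. Nearness to the floor limits Gabrd at 1 h, and the filter on brightness left Gad2 out of the main test.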

Other observations

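Peptides and calcium-binding proteins that mark classes of GABA interneurons were measured on the same arrays, and Sst was even more level than Gad1. Sst, the somatostatin gene of a class that inhibits dendrites, read 4021, 4023, 4013 and 4073 at 1, 2, 4 and 6 h. Its mean was 4033 ± 27.6 (SD, n = 4), and only 1 of the 7453 tested probe sets had a smaller log2 SD. Pvalb (parvalbumin), of interneurons that inhibit cell bodies, read 2587, 2304, 2366 and 2144 on its brighter probe set, with the 1 h array the highest, a probe set whose identifier (ending in _i_at) marks fewer probes than usual. Npy, a neuropeptide of interneurons, read 1568, 1839, 1964 and 1786, and Lhx6, a transcription factor of interneurons from the medial ganglionic eminence, 483, 314, 436 and 479. Cck, a peptide that pyramidal cells also express, read 11909, 14058, 13544 and 11068. Their log2 SDs, 0.11 for Pvalb, 0.14 for Npy, 0.16 for Cck and 0.29 for Lhx6, were larger than the 0.04 of Gad1. Of the 13 tested interneuron probe sets, 7 (53.8%) had a log2 SD under the median of all tested probe sets. The median SD of the 13 was 0.242, against 0.243 over all tested probe sets, so the list was not more level than the rest. In limma, 0 of the 13 passed the slope test, and 1 (Calb2) had an unadjusted p under 0.05. Over all tested probe sets, 0.0134% passed and 4.4% had an unadjusted p under 0.05.

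At 1 h, 8 of these 13 probe sets stood above the mean of their later arrays and 5 below it, and 0 were 2-fold apart from it in either direction. Over all tested probe sets, 45.4% stood below at 1 h, 5.29% were 2-fold or more below and 1.8% as far above. Among the 5 interneuron probe sets below, Calb2 (calretinin) read 663 at 1 h and 1265, 1229 and 1427 later. Its slope was 0.17, with an adjusted p of 0.874 in limma. Nos1, the neuronal nitric oxide synthase, was also lower at 1 h, at 24.2 against 127, 127 and 157 later, and did not pass the filter. These genes were chosen after their values were seen.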
